A study of Mus musculus with 6 samples.

Results

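The genes described here are 33 transcripts of macrophages and other myeloid leukocytes, taken as a named list from the 17256 genes of the deposited expression table. All 33 were found by symbol. The study sequenced RNA from the antral lining of the stomach (labelled antrum epithelium) of C57BL/6 mice with atrophic gastritis, in 2 groups of 3 libraries. Both groups had received MNNG, a carcinogen that alkylates DNA, and an agent spelled Ranitine in the labels, over 20 weeks. The vehicle group was then given vehicle for 2 weeks and the PEEPA-P5 group was given PEEPA-P5 by gavage for 2 weeks. PEEPA-P5 is known here by that code name alone, no untreated stomach is in the comparison, and the sources used here give neither age nor sex. Nothing in the labels ties a library to its own mouse. The p-values therefore reflect only how far these libraries differ among themselves, which may be technical.

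Macrophages are phagocytes that settle in the connective tissue beneath gastric epithelium and are replenished in part from blood monocytes. Their survival depends on the receptor CSF1R and its ligands CSF1 and IL-34, and their gene expression on the transcription factor PU.1, the product of Spi1. They take up debris through scavenger, lectin and Fc receptors, degrade it in lysosomes, and secrete lysozyme and the complement protein C1q. Several genes of the list, such as Ptprc and Coro1a, are active in all leukocytes, so the list does not separate macrophages from monocytes, dendritic cells or neutrophils.

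In 5 of the 6 libraries the genes were read at low but measurable levels, and in PEEPA-P5 library 3 most of them were lower still. Leaving aside Lcp1, which alone took 89.1 to 110.1 CPM and was set apart after its values were seen, the members summed to 123.3 CPM in vehicle 1, 113.9 in vehicle 2 and 68.1 in vehicle 3. CPM is the depth-normalised read count, here relative to the TMM-scaled library size, which allows for a few very abundant transcripts. In the PEEPA-P5 group the sums were 69.1 CPM in library 1, 117.1 in library 2 and 27.6 in library 3. PEEPA-P5 2 thus stood with vehicle 1 and 2, PEEPA-P5 1 with vehicle 3, and PEEPA-P5 3 below all others. The groups overlapped, and the group means were 101.7 ± 29.5 CPM with vehicle and 71.3 ± 44.8 CPM with PEEPA-P5 (SD, n = 3 each). In bulk RNA, fewer cells of a type and less RNA per cell cannot be told apart.

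PEEPA-P5 3 was the lowest library for 28 of the 33 members, against 31.4% of all tested genes, and lay below every vehicle library in those same 28. In 22 members its level was under 0.5 times that in the lowest of the other libraries. It held at most 5 counts for 17 members, whereas the other libraries held so few for 0 to 3 members. A single count there equals 0.067 CPM. PEEPA-P5 1 lay below all vehicle libraries in 18 members and PEEPA-P5 2 in 4, while PEEPA-P5 2 lay above all of them in 9. Because PEEPA-P5 3 was so often the lowest library, differences of the members between the groups are given with all 6 libraries and without it. The counts set against the vehicle libraries, and that of 22 members, have no share over all tested genes beside them. They describe the members only.

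**Figure D1:**
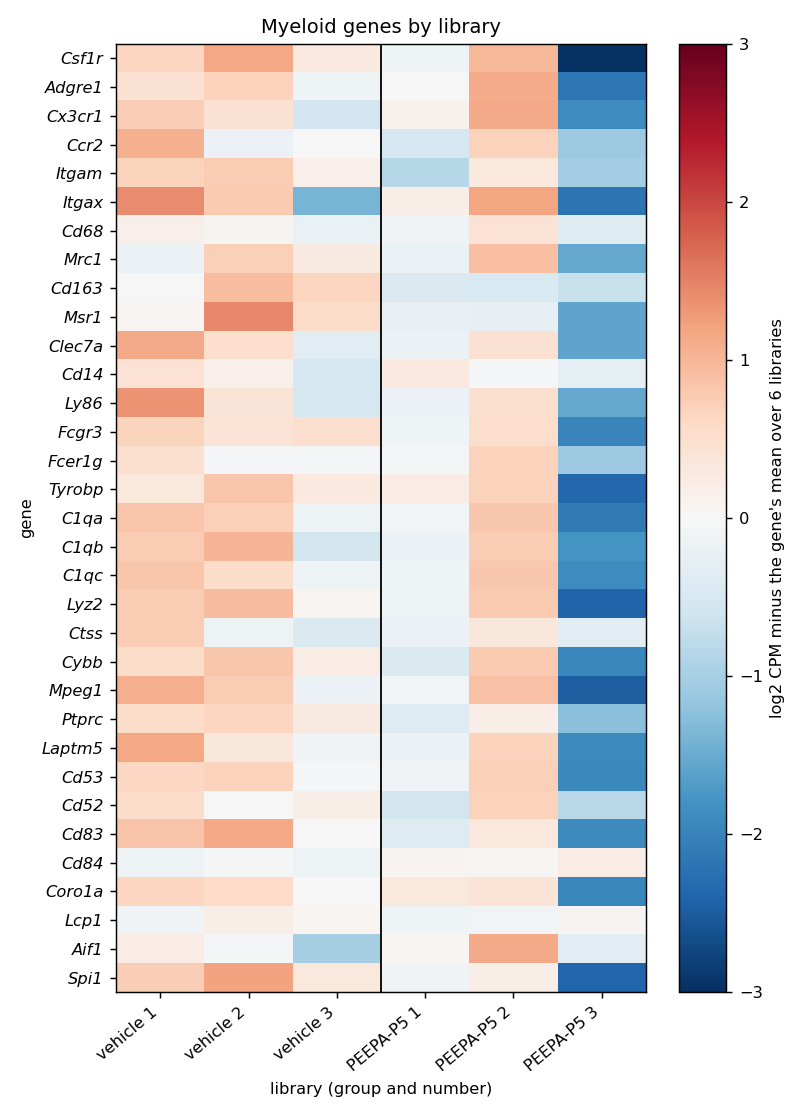
Colour shows log2 CPM (prior count of 2) of each of the 33 genes in each library, minus the gene's mean over the 6 libraries; columns are the 3 vehicle and 3 PEEPA-P5 libraries. The column of PEEPA-P5 3 is blue for most genes, with Cd84 and Lcp1 slightly above their means there.

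Total counts per library ran from 16388852 to 16903559. Markers of the labelled tissue were abundant: 10 epithelial genes such as Muc5ac, Tff1 and Epcam together took 121724 to 192776 CPM, so the myeloid genes are a minor part of every library. PEEPA-P5 3 also stood apart for other cell types that lie beneath the epithelium. The summed level of 8 fibroblast genes was 174 to 425 CPM with vehicle, 247 and 375 CPM in PEEPA-P5 1 and 2, and 30.3 CPM in PEEPA-P5 3. For 10 endothelial genes the sums were 104 to 149, 71.7 and 101.8, and 18.8 CPM, and for 7 genes of smooth muscle and pericytes 168 to 354, 119 and 287, and 28.03 CPM. The epithelial list had its highest sum, 192776 CPM, in PEEPA-P5 3. Of the 10 epithelial genes, 5 were higher with PEEPA-P5 at an unadjusted edgeR p under 0.05, where 5.92% of all genes were. There were 2 without PEEPA-P5 3, against 3.85% of all genes, and 3 with the library number as a block, against 6.62%. The block also put 3 of 9 tested endothelial, 2 of 8 fibroblast and 4 of 7 smooth muscle and pericyte genes at a lower level at that p. The fit without it put 0 of each there. Of all genes, 7.06% were lower at that p with the block and 6.14% without it. Without PEEPA-P5 3, and unblocked, 2 of 9 endothelial genes were lower at that p, against 4.92% of all genes. Of the 8 fibroblast and the 7 smooth muscle and pericyte genes, 0 were. For endothelium, fibroblasts, and smooth muscle and pericytes, the median differences in mean log2 CPM were then -0.63, 0.15 and -0.41. With all 6 libraries they were -1.36, -0.95 and -1.39. The part of these differences in the myeloid result was not tested.

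**Figure D2:**
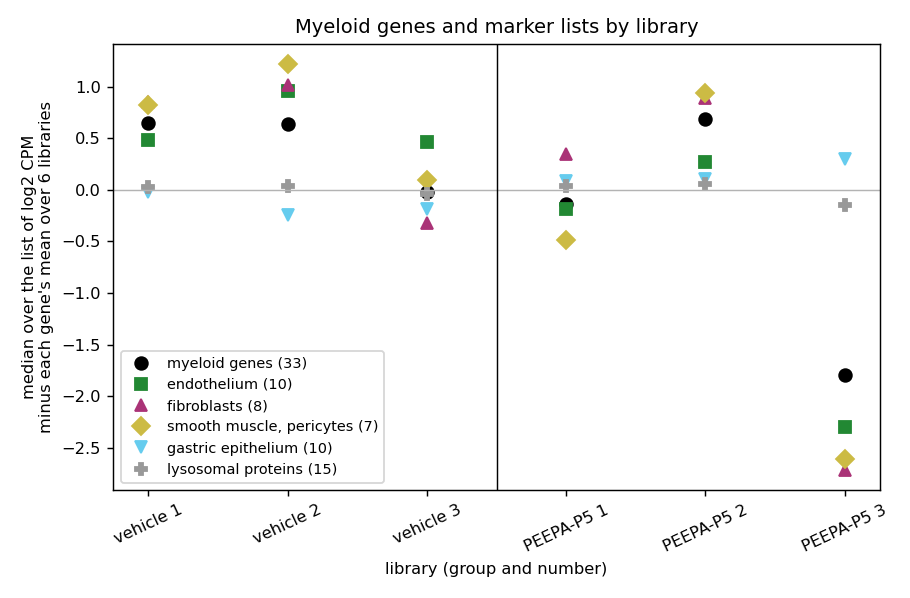
Each symbol is the median over a gene list of log2 CPM minus each gene's mean over the 6 libraries, by library; the numbers of genes are in the key. In PEEPA-P5 3 the myeloid median was -1.80, beside -2.30 for endothelium, -2.71 for fibroblasts and -2.61 for smooth muscle and pericytes, against -0.14 for lysosomal proteins and 0.30 for gastric epithelium.

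As a description chosen after the values were seen, the summed C1q level was divided by that of the endothelial list. This ratio was 0.238, 0.163 and 0.098 across the vehicle libraries, in numbered order, and 0.177, 0.240 and 0.179 across those of PEEPA-P5. On this ratio PEEPA-P5 3 lay within the vehicle range. Divided by the fibroblast list, the ratio was 0.111 in PEEPA-P5 3 and from 0.052 to 0.066 in the other libraries. Divided by smooth muscle and pericytes, it was 0.120 in PEEPA-P5 3 and from 0.068 to 0.107 elsewhere. These ratios describe C1q only, and whether the other members kept to them was not tested. In PEEPA-P5 3, Csf1r and Spi1 held 5.22% and 5.20% of the mean of the other libraries, less than each C1q chain. Those shares rest on 3 counts and 1 count. Cd68 and Cd14 held 72.6% and 77.4% there, more than each C1q chain.

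The start regions of a few members are shown because PU.1, which binds many myeloid promoters, is itself encoded by a member of the list. RefSeq promoter windows (GRCm38.p6) matched 24 of the 33 members by symbol; Csf1r, Adgre1, Msr1, Cd14, Tyrobp, C1qa, Cd52, Cd83 and Spi1 had none. The 250 bases before each start site were searched on both strands for GAGGAA, the core of the PU.1 motif, and for its longer form GAGGAAGT, which contains it. GAGGAA was present in 12 of the 24 members, and in 25.9% of 27025 genes with a window of this length. GAGGAAGT was present in C1qc alone among the members, or 4.17%, and in 2.79% of the genes. Capitals below mark GAGGAA or its reverse complement TTCCTC, in the direction of transcription. C1qb, C1qc, Lyz2 and Mrc1 stand for members with low levels in PEEPA-P5 3, and Ctss and Lcp1, the latter with the first of its 2 start sites, for members without. A match is a description of these letters and not a site.

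C1qb, chr4:136886201-136886450, minus strand: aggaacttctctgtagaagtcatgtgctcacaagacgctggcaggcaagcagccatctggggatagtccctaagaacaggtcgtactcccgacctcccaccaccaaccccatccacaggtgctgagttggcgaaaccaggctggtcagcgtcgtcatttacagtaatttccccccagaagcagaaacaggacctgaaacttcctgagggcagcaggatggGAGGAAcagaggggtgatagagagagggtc
C1qc, chr4:136892915-136893164, minus strand: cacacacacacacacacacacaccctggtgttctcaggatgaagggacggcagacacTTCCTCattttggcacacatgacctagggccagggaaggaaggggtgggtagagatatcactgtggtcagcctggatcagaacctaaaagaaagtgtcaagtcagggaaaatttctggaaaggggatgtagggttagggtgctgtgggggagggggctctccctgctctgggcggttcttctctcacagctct
Lyz2, chr10:117282273-117282522, minus strand: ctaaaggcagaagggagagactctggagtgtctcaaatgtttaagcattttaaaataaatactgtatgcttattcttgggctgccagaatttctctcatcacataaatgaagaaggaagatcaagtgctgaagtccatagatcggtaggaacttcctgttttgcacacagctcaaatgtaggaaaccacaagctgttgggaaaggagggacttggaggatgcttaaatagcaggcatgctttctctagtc
Mrc1, chr2:14229164-14229413, plus strand: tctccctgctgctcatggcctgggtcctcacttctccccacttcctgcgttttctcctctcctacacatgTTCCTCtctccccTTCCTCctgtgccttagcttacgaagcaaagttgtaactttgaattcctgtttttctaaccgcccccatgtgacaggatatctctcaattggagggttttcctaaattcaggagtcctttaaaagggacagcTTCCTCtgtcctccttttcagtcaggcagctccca
Ctss, chr3:95526536-95526785, plus strand: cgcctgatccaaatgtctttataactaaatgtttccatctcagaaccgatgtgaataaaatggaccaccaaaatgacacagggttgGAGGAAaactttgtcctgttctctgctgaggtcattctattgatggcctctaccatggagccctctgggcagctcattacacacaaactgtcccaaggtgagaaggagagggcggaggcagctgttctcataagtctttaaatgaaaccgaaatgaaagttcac
Lcp1, chr14:75130873-75131122, plus strand: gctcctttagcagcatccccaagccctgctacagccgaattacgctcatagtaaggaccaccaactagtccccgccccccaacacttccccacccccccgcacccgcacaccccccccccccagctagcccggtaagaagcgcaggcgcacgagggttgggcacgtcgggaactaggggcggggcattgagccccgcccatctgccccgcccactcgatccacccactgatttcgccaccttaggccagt

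Matches occurred in members of both kinds: C1qb, C1qc and Ctss held 1 each and Mrc1 held 3, whereas Lyz2 and Lcp1 held none in these windows. Across all windows the 12 members with a match were Aif1, C1qb, C1qc, Cd53, Cd68, Clec7a, Ctss, Fcgr3, Itgam, Laptm5, Mrc1 and Ptprc.

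The comparison asks how these genes differed after PEEPA-P5 and after vehicle in stomachs with gastritis. None of the 33 genes passed edgeR's quasi-likelihood test at an adjusted p under 0.05. Of the 33, 30 passed the filter on low counts, and the smallest adjusted p among them was 0.444. Over all 13071 genes tested, 0% passed, with a smallest adjusted p of 0.412. At an unadjusted p under 0.05 there were 0 members, against 6.14% of all genes lower and 5.92% higher with PEEPA-P5. DESeq2 also gave 0 members at an unadjusted p under 0.05, where 1713 of 13064 genes were in either direction. At that p limma-voom gave 1 member, Ptprc, and 1533 of 13071 genes. The fitted log2 difference was below 0 in 27 of the 30 tested members, against 50.6% of all genes. The median difference in mean log2 CPM was -0.82 over the tested members and -0.83 over all 33, against -0.01 over all tested genes.

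Without PEEPA-P5 3 that median was -0.13 over the 32 members then tested, against -0.00163 over all genes. The fitted difference was below 0 in 23 of those 32, against 51.5% of all genes. At an unadjusted p under 0.05 there were again 0 members, with 4.92% of all genes lower and 3.85% higher. Without PEEPA-P5 2, the library of its group with the highest sum of the members, the median was -1.39. The groups did not overlap in 3 tested members: Ptprc and Spi1 were lower in every PEEPA-P5 library, where 10.7% of all genes were, and Cd84 was higher in every one, where 9.74% were. Cd163 and Msr1, which did not pass the filter, were also lower in every PEEPA-P5 library. On the authors' TPM scale no tested member kept its groups apart. With fewer libraries the groups of any gene overlap less often. Without vehicle 3, 6 of 31 members were lower in every PEEPA-P5 library and 1 was higher, against 16.2% and 14.7% of all genes. Without PEEPA-P5 2, 15 of 31 were lower and 1 was higher, or 16 together, against 18.8% and 17.7% of all genes. Leaving out PEEPA-P5 2 also put 3 members lower and 0 higher at an unadjusted edgeR p under 0.05, against 6.82% and 5.87% of all genes. Vehicle 3 had the lowest sum of the members in its group, and PEEPA-P5 2 the highest in its own. Leaving out either one therefore moves the members apart by their own values. The shares of all genes do not allow for this, so no conclusion is drawn from these counts.

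**Figure D3:**
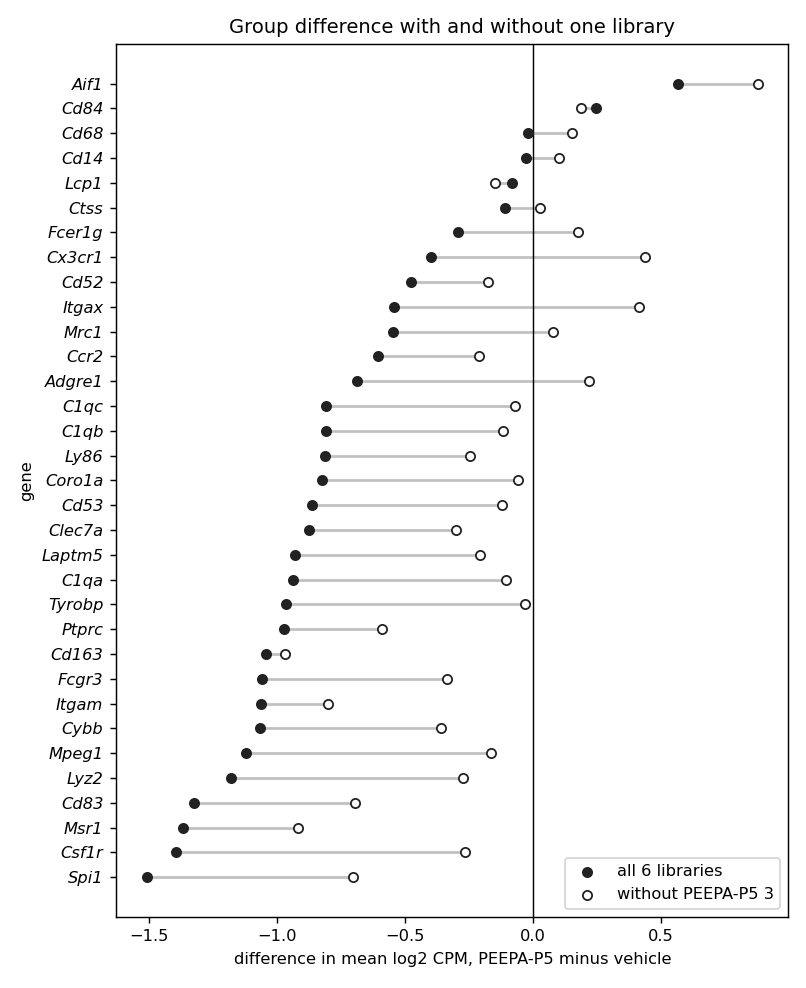
Each row is a gene; the filled point is the difference in mean log2 CPM (prior count of 2), PEEPA-P5 minus vehicle, over all 6 libraries, and the open point is the same without PEEPA-P5 3. The median moved from -0.83 to -0.15 over the 33 genes on this scale, with TMM factors of all 6 libraries kept, and Spi1, Cd83, Itgam, Ptprc, Msr1 and Cd163 had open points below -0.5.

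The libraries of both groups are numbered 1 to 3, and the labels do not say that a number marks a pair. Deviations of like-numbered libraries correlated weakly, at 0.237, 0.346 and 0.235, against -0.349 to 0.176 in the other pairings. Set against the vehicle library of its own number, PEEPA-P5 1 was lower in 32 of 33 members, PEEPA-P5 2 in 15 and PEEPA-P5 3 in 28, where 49.8%, 50.8% and 52.2% of all tested genes were lower. The median differences in log2 CPM were -0.84, 0.10 and -1.53. With the number as a block in edgeR, 4 members had an unadjusted p under 0.05, all lower (C1qb, Cd83, Itgam and Ptprc), against 7.06% of all genes lower and 6.62% higher. Their adjusted p was 0.364 each.

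Levels per transcript length, in TPM, set the order within the list. Lcp1 was at 31.03 ± 5.62 TPM with vehicle and Lyz2 at 20.7 ± 8.05 TPM (SD, n = 3). The C1q chains followed, with C1qa at 10.5 ± 4.16, C1qb at 8.71 ± 4.83 and C1qc at 6.38 ± 2.43 TPM, and with them Fcer1g at 7.03 ± 1.74 and Cd52 at 6.61 ± 1.47 TPM. Neighbours in this order from C1qa down to Cd68 differed by less than their SD. Ctss, Tyrobp, Cd14 and Cd68 lay between 4.76 and 5.83 TPM, and the lowest members were Ccr2 at 0.24 and Cd163 at 0.13 TPM.

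Lyz2 (Entrez 17105) encodes lysozyme M, which cleaves bacterial cell walls. It stood at 21.92, 28.07 and 12.11 TPM in the vehicle libraries, in numbered order, and at 11.09, 22.31 and 1.95 TPM in those of PEEPA-P5; all values by library below keep this order. PEEPA-P5 2 lay among the vehicle libraries, and PEEPA-P5 3 was at 12.2% of the mean of the other 5 on the CPM scale. The edgeR log2 difference was -0.73 (standard error, SE, 0.71, adjusted p 0.669), and -0.24 without PEEPA-P5 3. Of its annotated sequence, 32.8% occurs in transcripts of Lyz1, so that the division of reads between these genes is uncertain. Lyz1 had 36, 43 and 14 counts with vehicle and 19, 35 and 2 with PEEPA-P5, in the same order of libraries as Lyz2 within each group.

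C1qa, C1qb and C1qc encode the chains of C1q, which starts the classical complement pathway, and lie side by side in the genome. C1qa (Entrez 12259) was at 10.3, 9.44 and 5.12 CPM with vehicle and at 5.36, 10.1 and 1.21 CPM with PEEPA-P5. C1qb (Entrez 12260) was at 8.05, 9.66 and 3.20 against 4.16, 8.12 and 1.28 CPM, and C1qc (Entrez 12262) at 6.38, 5.18 and 3.14 against 3.19, 6.25 and 0.87 CPM. All 3 chains shared the pattern in which vehicle 1, vehicle 2 and PEEPA-P5 2 were high, vehicle 3 and PEEPA-P5 1 were lower and PEEPA-P5 3 was lowest. Their edgeR log2 differences were -0.57, -0.62 and -0.51 with all libraries and -0.10, -0.18 and -0.05 without PEEPA-P5 3.

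**Figure D4:**
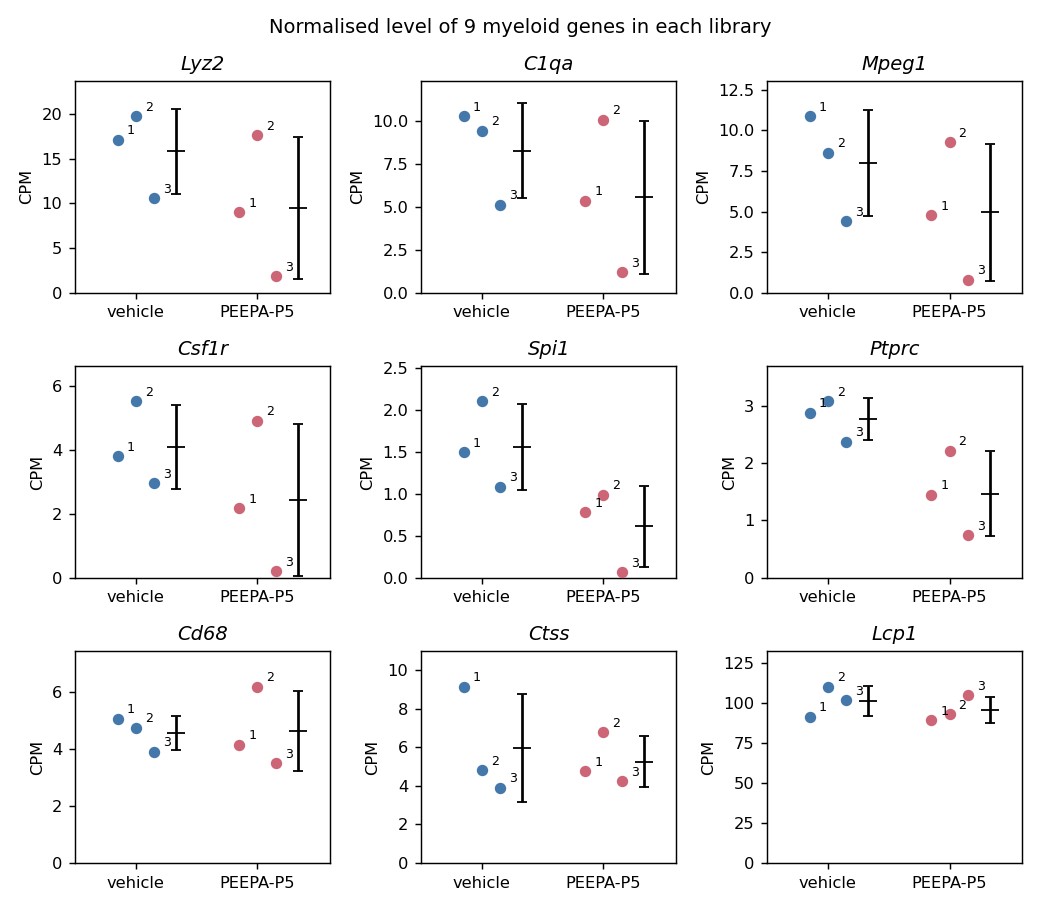
Points are CPM in each library, numbered 1 to 3 within a group, for 9 of the genes; bars beside them are the mean and SD of 3 libraries. For Lyz2, C1qa, Mpeg1 and Csf1r, PEEPA-P5 2 lies within the vehicle range and PEEPA-P5 3 is the lowest point, whereas for Cd68, Ctss and Lcp1 the lowest PEEPA-P5 points are 3.50, 4.23 and 89.1 CPM.

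Among the surface receptors of macrophages and monocytes, 0 of the 5 tested had an unadjusted edgeR p under 0.05. Csf1r (Entrez 12978), the receptor for CSF1 and IL-34, was at 3.80, 5.50 and 2.95 CPM with vehicle and 2.17, 4.91 and 0.20 CPM with PEEPA-P5. The last value rests on 3 counts. Its edgeR log2 difference was -0.74 (SE 0.84, adjusted p 0.716) and -0.20 without PEEPA-P5 3. Adgre1, which encodes F4/80, had 18, 23 and 10 counts with vehicle and 12, 29 and 1 with PEEPA-P5. Cx3cr1, the fractalkine receptor, was at 2.24, 1.83 and 0.83 against 1.45, 3.04 and 0.27 CPM. For both of these genes PEEPA-P5 2 was the highest of all 6 libraries, and the sign of the fitted difference turned without PEEPA-P5 3, to 0.31 and 0.45. Itgax (CD11c) spread widely within the vehicle group, from 0.32 CPM in vehicle 3 to 2.99 CPM in vehicle 1, against 1.205, 2.51 and 0.13 CPM with PEEPA-P5, and its sign turned too, to 0.09.

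Itgam (Entrez 16409), the CD11b integrin of monocytes, macrophages and neutrophils, was at 1.61, 1.73 and 1.09 CPM with vehicle and 0.48, 1.23 and 0.40 CPM with PEEPA-P5. PEEPA-P5 2 lay above vehicle 3 here. In the edgeR fit, the log2 difference was -1.05 (SE 0.53, adjusted p 0.457), and -0.78 without PEEPA-P5 3. Itgam shares 68.1% of its annotated sequence with other genes, mostly a predicted gene model, Gm49368. Ccr2, the receptor that draws monocytes from blood, had 23, 9 and 9 counts against 6, 17 and 3 and did not pass the filter.

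Of the 7 scavenger, lectin and pattern receptors 5 were tested, with 0 at an unadjusted edgeR p under 0.05. The median difference in mean log2 CPM was -0.55 over the 5 tested genes. Over all 7 it was -0.81, or -0.25 without PEEPA-P5 3. Without that library 4 of the 7 were below 0, whereas Cd68, Mrc1 and Cd14, all tested, were at 0.15, 0.08 and 0.10. Cd68 (Entrez 12514), a lysosomal glycoprotein widely used as a macrophage marker, was at 5.06, 4.75 and 3.91 CPM with vehicle and 4.16, 6.19 and 3.50 CPM with PEEPA-P5. Its edgeR log2 difference was 0.01 (SE 0.29) with all libraries and 0.18 without PEEPA-P5 3, which held 72.6% of the mean of the other libraries. Cd14 (Entrez 12475), the co-receptor for bacterial lipopolysaccharide, was at 8.68, 7.12 and 4.42 against 7.89, 6.19 and 5.31 CPM, so that its lowest library was vehicle 3, and its edgeR log2 difference was -0.06 (0.06 without PEEPA-P5 3). In PEEPA-P5 3, Cd14 held 77.4% of the mean of the other libraries, whereas Lyz2 and the C1q chains were at 12.2% to 19.2%.

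The macrophage scavenger receptors were scarce. Cd163, which takes up haemoglobin bound to haptoglobin, had 5, 12 and 8 counts with vehicle and 3, 3 and 2 with PEEPA-P5. Msr1 had 8, 26 and 11 counts against 6, 6 and 1. In both genes the groups did not overlap. Fitted without the filter, Cd163 and Msr1 had edgeR log2 differences of -1.502 and -1.66 (adjusted p 0.475 each). They were then the 2 members with an unadjusted edgeR p under 0.05. That fit covered 17210 genes, and no share of them stands beside this count. Both genes rest on 1 to 26 counts per library. Mrc1, the mannose receptor, was at 1.04, 2.05 and 1.47 against 1.02, 2.34 and 0.34 CPM, with PEEPA-P5 2 the highest library and a fitted difference that turned from -0.29 to 0.15 without PEEPA-P5 3. Clec7a, the β-glucan receptor dectin-1, was at 2.88, 1.83 and 0.96 against 1.08, 1.75 and 0.34 CPM. Ly86, the MD-1 protein, had 22, 11 and 4 against 6, 11 and 1 counts. Both overlapped between groups, with edgeR log2 differences of -0.83 (-0.41 without PEEPA-P5 3) for Clec7a and -0.95 (-0.49 without PEEPA-P5 3) for Ly86.

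The Fc receptor and the adaptors had their lowest values in PEEPA-P5 3. Tyrobp (Entrez 22177), the adaptor DAP12 of activating receptors, was at 4.88, 7.96 and 4.28 TPM with vehicle and at 4.29, 6.35 and 0.36 TPM with PEEPA-P5. Fitted by edgeR, the log2 difference was -0.55 (SE 0.74), and -0.03 without PEEPA-P5 3. Fcer1g, the common γ chain of Fc receptors, was at 8.89, 6.76 and 5.44 against 5.77, 10.06 and 2.30 TPM. Fcgr3, a low-affinity IgG receptor, was at 2.53, 2.29 and 2.03 against 1.35, 2.27 and 0.26 TPM. The groups overlapped for both, with edgeR log2 differences of -0.14 (0.21 without PEEPA-P5 3) for Fcer1g and -0.77 (-0.31 without PEEPA-P5 3) for Fcgr3. The 13.4% of its sequence that Fcgr3 shares with Fcgr2b makes the split between these receptors uncertain.

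Among the phagocyte effectors, PEEPA-P5 3 was lowest for Mpeg1, Cybb and Lyz2 but not for Ctss. Mpeg1 (Entrez 17476), the pore-forming perforin-2 of phagosomes, was at 10.9, 8.63 and 4.42 CPM with vehicle and at 4.76, 9.28 and 0.81 CPM with PEEPA-P5. Cybb, the catalytic subunit of the phagocyte oxidase, was at 1.32, 1.62 and 1.02 against 0.60, 1.58 and 0.13 CPM. Ctss (Entrez 13040), the cathepsin that trims the invariant chain of class II molecules, was at 9.14, 4.80 and 3.91 against 4.76, 6.77 and 4.23 CPM. For Ctss the lowest library was vehicle 3 and PEEPA-P5 3 held 72.1% of the mean of the others, compared with 10.6% for Mpeg1 and 10.9% for Cybb. The edgeR log2 differences were -0.68 (-0.18 without PEEPA-P5 3) for Mpeg1, -0.76 (-0.28 without PEEPA-P5 3) for Cybb and -0.18 (-0.04 without PEEPA-P5 3) for Ctss.

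Among membrane proteins of leukocytes, Ptprc had the smallest p of the list. Ptprc (Entrez 19264), the phosphatase CD45 carried by all leukocytes, was at 2.88, 3.08 and 2.37 CPM with vehicle and at 1.45, 2.22 and 0.74 CPM with PEEPA-P5. Every PEEPA-P5 library lay below every vehicle library, although on the TPM scale vehicle 3 and PEEPA-P5 2 were level at 0.47. The edgeR log2 difference was -0.91 (SE 0.44, unadjusted p 0.078, adjusted p 0.444), and -0.59 without PEEPA-P5 3 (adjusted p 0.569). Laptm5, a lysosomal membrane protein, was at 7.13, 3.99 and 2.88 against 2.77, 5.08 and 0.74 CPM. Cd53, a tetraspanin, had 17, 19 and 9 counts against 9, 18 and 1. Cd52, a short surface glycoprotein, was at 8.28, 6.02 and 5.53 against 3.38, 8.93 and 2.33 TPM. These 3 genes overlapped between groups, with edgeR log2 differences of -0.70 (-0.25 without PEEPA-P5 3) for Laptm5, -0.61 (-0.11 without PEEPA-P5 3) for Cd53 and -0.35 (-0.06 without PEEPA-P5 3) for Cd52.

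The fitted differences of Cd83 and Cd84 had opposite signs. Cd83 (Entrez 12522), a marker of activated dendritic cells and B cells, had 20, 27 and 9 counts with vehicle and 7, 13 and 1 with PEEPA-P5, and its edgeR log2 difference was -1.32 (SE 0.74, adjusted p 0.485). PEEPA-P5 2 lay above vehicle 3, and the difference was -0.84 without PEEPA-P5 3. Cd84 (Entrez 12523), a SLAM-family receptor, had 20, 23 and 18 counts against 23, 23 and 23, or 1.15, 1.24 and 1.15 against 1.39, 1.34 and 1.55 CPM. Its highest library was PEEPA-P5 3. In the edgeR fit, the log2 difference was 0.27 (SE 0.34, adjusted p 0.742), and 0.21 without PEEPA-P5 3.

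Spi1 (Entrez 20375), which encodes PU.1, had with Cd83 the lowest fitted value among tested members. It was at 1.495, 2.10 and 1.09 CPM with vehicle and at 0.78, 0.99 and 0.07 CPM with PEEPA-P5, the last from 1 count. The groups did not overlap. Fitted by edgeR, the log2 difference was -1.32 (SE 0.73, adjusted p 0.482), and -0.81 without PEEPA-P5 3 (adjusted p 0.566). On the TPM scale PEEPA-P5 2, at 0.82, lay just above vehicle 3, at 0.79.

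Lcp1 (Entrez 18826), the actin-bundling L-plastin of leukocytes, was at 91.3, 110.1 and 101.8 CPM with vehicle and 89.1, 92.96 and 104.6 CPM with PEEPA-P5. The groups overlapped, and PEEPA-P5 3 stood at 108% of the mean of the others. The leukocyte genes Coro1a and Ptprc held 14.3% and 30.8% there. Their vehicle means were 1.92 and 2.77 CPM, against 101.1 CPM for Lcp1. Which cells the Lcp1 reads came from was not tested. The edgeR log2 difference of Lcp1 was -0.08 (SE 0.11) with all libraries and -0.15 without PEEPA-P5 3. Coro1a, the leukocyte coronin, was at 1.63, 1.70 and 0.92 against 1.22, 1.35 and 0.17 TPM, with the low value in PEEPA-P5 3 that most members share and an edgeR log2 difference of -0.56 (-0.09 without PEEPA-P5 3). Aif1, which encodes the macrophage marker IBA1, had 13, 11 and 4 counts against 11, 26 and 7. Its edgeR log2 difference was 0.72 (SE 0.63), and 1.02 without PEEPA-P5 3.

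Other genes of the same pathways were read from fixed lists, and none passed the adjusted threshold. Counts at an unadjusted p under 0.05 are from edgeR without the block, followed by those without PEEPA-P5 3 and with the block where they differ. Of 17 ligands and chemoattractants of monocytes 7 were tested, and 2 were lower and 0 higher at an unadjusted p under 0.05 (3 lower without PEEPA-P5 3, 1 with the block). Csf1 (Entrez 12977), the main ligand of CSF1R, was at 3.91, 5.77 and 5.44 CPM with vehicle and 2.11, 2.39 and 0.20 CPM with PEEPA-P5. Every PEEPA-P5 library lay below every vehicle library. In the edgeR fit, the log2 difference of Csf1 was -1.67 (SE 0.69, unadjusted p 0.047, adjusted p 0.412), and -1.16 without PEEPA-P5 3 (unadjusted p 0.006). With the block the unadjusted edgeR p of Csf1 was 0.054. Cxcl12 (Entrez 20315), a chemokine of stromal cells, was at 7.71, 13.3 and 28.2 against 3.01, 5.14 and 0.67 CPM (edgeR adjusted p 0.412). The groups did not overlap for Cxcl12 either, and its log2 difference was -2.46 (-1.997 without PEEPA-P5 3).

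Of the complement genes beyond C1q, 8 of the 11 listed were tested, and 1 was lower and 0 higher at an unadjusted p under 0.05 (3 lower with the block). C3 (Entrez 12266), the central complement component, was at 2.70, 8.58 and 8.58 CPM with vehicle and 1.45, 2.39 and 0.67 CPM with PEEPA-P5, and its edgeR log2 difference was -2.12 (SE 0.60, adjusted p 0.412). It was -1.78 without PEEPA-P5 3. C1ra, a serine protease of the same pathway, was at 12.4 ± 3.20 CPM with vehicle and 6.82 ± 4.57 CPM with PEEPA-P5 (SD, n = 3; edgeR adjusted p 0.559). Its edgeR log2 difference was -0.86, or -0.40 without PEEPA-P5 3, and its unadjusted p was 0.045 with the block. Of 20 genes of tissue macrophages 14 were tested, with 3 lower and 2 higher at an unadjusted p under 0.05 (2 and 1 without PEEPA-P5 3, 4 and 2 with the block). Gas6, a bridging ligand for the clearance of dead cells, was at 143, 178 and 267 against 123, 126 and 115 CPM, and the tetraspanin gene Cd9 at 159, 126 and 123 against 188, 176 and 164 CPM (edgeR adjusted p 0.412 each). Neither gene is specific to macrophages, and the groups did not overlap for either. Without PEEPA-P5 3 the unadjusted edgeR p was 0.053 for Gas6 and 0.017 for Cd9.

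In the list of pattern recognition receptors and adaptors, 17 of 26 genes were tested, with 2 lower and 0 higher at an unadjusted p under 0.05 (1 lower without PEEPA-P5 3 and with the block, Irak1 in both). The kinase gene Irak1 was at 59.1, 65.99 and 68.2 against 54.6, 52.4 and 57.1 CPM, and Nod1 at 5.81, 7.88 and 9.74 against 5.84, 5.14 and 4.23 CPM (edgeR adjusted p 0.412 each). Of 17 genes of Fc receptors and their signalling 10 were tested, with 0 lower and 1 higher (0 higher without PEEPA-P5 3 and with the block). The kinase gene Syk was at 26.1, 25.5 and 21.3 against 31.3, 26.7 and 36.1 CPM (edgeR adjusted p 0.412), and its unadjusted p was 0.118 without PEEPA-P5 3 and 0.074 with the block. Plcg2, a phospholipase downstream of Syk, was at 13.9 ± 0.904 against 11 ± 2.62 CPM (SD, n = 3; edgeR adjusted p 0.507). Among inflammatory mediators 6 of 15 were tested, with 0 lower and 1 higher. That gene, Il18, a cytokine also made by epithelium, was at 172, 141 and 152 against 189.98, 189 and 272 CPM (edgeR adjusted p 0.412). Its edgeR log2 difference was 0.49, or 0.29 without PEEPA-P5 3. The cytokine gene Tgfb1, with a log2 difference of -0.58, or -0.23 without PEEPA-P5 3, was at 9.37 ± 1.83 against 6.25 ± 3.22 CPM (SD, n = 3; edgeR adjusted p 0.559).

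Lysosomal genes are expressed in most cells, epithelium included. All 15 were tested, with 0 lower and 1 higher at an unadjusted p under 0.05, and their median difference in mean log2 CPM was 0.02. The cathepsin gene Ctsz was at 122, 113 and 88.1 CPM with vehicle against 149.6, 154 and 138 CPM with PEEPA-P5 (edgeR adjusted p 0.412). Hexa, a subunit of β-hexosaminidase, was at 51.2 ± 3.25 against 43.7 ± 5.56 CPM (SD, n = 3; edgeR adjusted p 0.469). Of 14 myeloid transcription factors 11 were tested, with 0 lower and 1 higher (0 higher without PEEPA-P5 3 and with the block). That gene, Klf4, a factor also active in surface epithelium, was at 1069, 1107 and 1027 against 1186, 1293 and 1661 CPM. Runx1 was at 41.9 ± 1.79 against 50.3 ± 8.76 CPM (SD, n = 3; edgeR adjusted p 0.463). Of 10 genes of class II antigen presentation 8 were tested, with 0 lower and 0 higher, and H2-Aa, a class II chain, was at 43.3, 26.5 and 21.3 against 19.03, 30.1 and 16.7 CPM. H2-Eb1, another class II chain, was at 14.6 ± 6.59 against 10.2 ± 5.46 CPM (SD, n = 3; edgeR adjusted p 0.652). In the phagocyte oxidase list 4 of 5 were tested, with 0 in either direction. Cyba, which encodes a membrane subunit of the oxidase, was at 38.4, 30.8 and 21.6 against 31.98, 27.4 and 51.2 CPM, highest in PEEPA-P5 3.

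Markers of T and NK cells, neutrophils and dendritic cells were scarce. The 17 genes of T and NK cells summed to 3.57, 2.70 and 4.04 CPM with vehicle and 1.45, 2.51 and 2.02 CPM with PEEPA-P5, and 10 of them had at most 3 counts in any library. The 9 genes of dendritic cells summed to 2.42, 3.13 and 2.498 against 1.93, 1.69 and 0.74 CPM. For both lists the sum was lower in every PEEPA-P5 library than in every vehicle library. The closest T and NK sums came from 43 counts in PEEPA-P5 2 and 50 in vehicle 2. Of all tested genes, taken singly, 10.7% were lower in every PEEPA-P5 library. The 11 neutrophil genes found summed to 0.48 to 1.89 CPM, and the groups overlapped. B and plasma cell genes summed to 2.35 to 36.2 CPM, with Jchain alone at 1.95 to 34.7 CPM, with the highest sum in vehicle 3 and the lowest in PEEPA-P5 3. Mast cell and eosinophil genes summed to 10.1 to 46.7 CPM. Their sum in PEEPA-P5 3, at 30.1 CPM, lay above all 3 vehicle libraries, whereas the median deviation over the list, at -0.63, lay below them. Red blood cell genes summed to 19.6 to 59.6 CPM with vehicle and 4.57 to 16.1 CPM with PEEPA-P5, so the groups did not overlap. The part of these cells in the levels of the shared leukocyte genes was not tested.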

How the data were processed

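Antrum epithelium RNA of 3 vehicle and 3 PEEPA-P5 libraries was analysed. Per the submitters' processing notes, Bowtie2 2.2.5, RSEM 1.2.12 and build mm9 were named, without their roles. Each gene has an expected count, an FPKM and a TPM value per library, per the file headers. The expected counts are the authors' estimates of reads, not normalized, and 9.82% were not whole; they were rounded. The authors' TPM is scaled per transcript length and library and gives levels per length here. The deposited FPKM values and the authors' group means were not used.

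edgeR 4.0.16 in R 4.3.3 (robust quasi-likelihood, TMM, filterByExpr with a minimum count of 10) tested 13071 genes without covariates, with Benjamini-Hochberg adjustment at 0.05. The script was tested on simulated data. Fitted differences weight libraries by their counts, whereas differences in mean log2 CPM (prior count 2) weight them equally, so the latter respond more to 1 low library. Like-numbered libraries of both groups had deviations correlated at 0.237, 0.346 and 0.235. The numbers are in the labels, which do not say that they mark pairs. The only ground for the block is thus these weak correlations, from the same data that the blocked fit tests. No library repeated another: the chi-square of their counts over its degrees of freedom was 13.3 or more in each pairing. The members, lists and tests were chosen with earlier results of these data known. The rule for named genes gives members with at least 1 CPM in the higher group by library, others by counts or range, and up to 2 genes per pathway list with the smallest p and at least 1 CPM. One gene that this rule names is not reported here. Shared sequence is the share of 31-base stretches of GENCODE M21 transcripts found in other genes. Alternatives were DESeq2 1.42.0, limma 3.58.1 (voom, and its trend fit to log2 of TPM plus 1 or plus 0.1), other scaling factors and filters, the replicate block and each library left out. Strandedness was not given in the sources used here.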

Additional observations from a re-analysis of the deposited data

How the results depend on the processing

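Of 477 values recomputed for the 30 tested genes, 453 kept their sign and side of the adjusted threshold and 24, in 8 genes, changed sign; none passed the threshold. The genes past the adjusted threshold over all genes were 101 with DESeq2, none of them a member, and 0 to 1 with each library left out. The genes at an unadjusted p under 0.05 ran from 717 to 2070 with each library left out, against 1576. The members at an unadjusted p under 0.05 were 1 with limma-voom, 2 without a count filter, 2 on log2(TPM + 1), 4 with the replicate block, 2 without both libraries numbered 3 (chosen after seeing the data) and 0 to 3 with each library left out. Over all genes, 1533 of 13071 were at that p with limma-voom. Shares at that p with the block, without PEEPA-P5 2 and without PEEPA-P5 3 are given above. The remaining counts at that p have no share beside them and describe the members only. The blocked fit put no member past the adjusted threshold. Its changes to unadjusted calls in the other lists stand beside them. Members whose groups do not overlap were 5 without a count filter, 0 on either TPM scale, 7 without both libraries numbered 3, and 3 to 16 with each library left out. For overlap, shares over all genes are given above only for all 6 libraries, without vehicle 3 and without PEEPA-P5 2. The other counts describe the members only, since with fewer libraries the groups of any gene overlap less often. The median difference of the members ran from -1.39 to -0.13 with each library left out and was -0.36 on log2(TPM + 1), where low values are compressed. Cd68, at 0.01, was -0.0115 with limma-voom, -0.0284 with upper quartile factors, -0.10 and -0.12 on log2(TPM + 1) and log2(TPM + 0.1), and -0.0162 with the replicate block. Without both libraries numbered 3, Cx3cr1 was 0.14, Fcer1g 0.12, Mrc1 0.12 and Adgre1 0.0911. With each library left out, log2 differences ran from -0.92 to 0.45 for Cx3cr1, -0.41 to 0.27 for Ctss, -0.66 to 0.21 for Fcer1g, -1.14 to 0.15 for Mrc1, -1.35 to 0.21 for Itgax, -1.26 to 0.31 for Adgre1, -0.29 to 0.16 for Cd14 and -0.25 to 0.18 for Cd68. The cause was not tested. Counts of 5 or fewer in PEEPA-P5 3 limit the precision of 17 members there.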
